A study of Mus musculus with 2 samples.

Results

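Growth factors for epidermal repair were followed through the lymphocytes of mouse ear epidermis as 5 listed genes, Areg, Hbegf, Vegfa, Tgfb1 and Igf1, of the 31053 genes in the count files. The genes were chosen by name for their roles in wound healing, and cells were assigned to classes by fixed rules on marker transcripts. Dendritic epidermal T cells (DETCs), the resident γδ T cells of mouse epidermis, were cells with at least 3 Trdc unique molecular identifiers (UMIs, each marking 1 captured mRNA molecule), at least 3 UMIs of Cd3d, Cd3e and Cd3g together, and none of Trac, Cd4, Cd8a or Cd8b1. Cells with at least 1 Trac UMI and no Trdv4 UMI are called αβ T cells. Cells with at least 3 UMIs of Il7r, Rora and Gata3 together, at most 2 of the 3 CD3 genes and none of Trdv4 form the class called innate lymphoid cells (ILCs). In the library of the group given isotype control antibody, 3544 of 4242 kept cells were DETCs, 197 αβ T cells and 82 ILCs, and 428 fell in no class. In that of the group given antibody to Skint1, of 5961 kept cells, the numbers were 4945, 213, 139 and 678. Cells that met both the αβ T and the ILC rule numbered 9 and 14 and were counted in both.

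Amphiregulin (Areg) and heparin-binding EGF-like growth factor (Hbegf) are membrane-anchored ligands that proteases release, after which they bind the EGF receptor and drive keratinocytes to divide and migrate. Vascular endothelial growth factor A (Vegfa) makes new vessels grow, transforming growth factor β1 (Tgfb1) is secreted in a latent form that integrins activate and both restrains T cells and shapes matrix repair, and insulin-like growth factor 1 (Igf1) signals survival and growth through its own receptor. DETCs are known for sensing damaged keratinocytes and for supplying growth factors during wound closure.

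The mice were wild type (WT) FVB/NJ females 8 weeks old. The groups were injected intradermally, 1 with isotype control antibody (the control library below) and the other with anti-Skint1, an antibody to a keratinocyte protein needed for DETC selection (the anti-Skint1 library), and ears of both groups were taken 7 d later. From trypsin-digested ear epidermis, viable cells of the phenotype CD45+EpCAM-MHC-II- were collected by flow sorting, and 1 droplet library with 3' counting was made per treatment. The question behind the comparison is what DETCs transcribe when their contact with Skint1 is blocked in unwounded skin. The kept cells held 17685609 UMIs in the control library and 22831345 in the anti-Skint1 library, of which DETCs held 14659876 and 18706191. Levels are UMIs summed over a class per 1000000 UMIs of that class (CPM), and a bracket after any level, ratio or share gives its exact 95% interval (Poisson, conditional binomial and Clopper-Pearson in that order). These intervals cover counting error only, there are no replicates, cells of 1 library are not replicates of a treatment, and the effect of treatment cannot be told apart from that of the library. The intervals of levels and ratios treat UMIs as independent and are too narrow for a gene whose UMIs cluster in few cells. Of paired values, the first is from the control library.

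The class labels were checked against marker lists. In DETCs all 8 DETC markers, 4 of which the rule itself uses, were found, summing to 24704 and 24229 CPM with Cd3g the most abundant at 9831 and 9953 CPM. A Trdv4 UMI was found in 3133 and 4146 of them. All 7 markers of dermal γδ T cells were found too, summing to 48.6 and 49.6 CPM in DETCs and led by Cd163l1 at 21.2 and 28.7 CPM, and the 3279 and 4510 DETCs without Il17a, Il17f or Cd163l1 had Areg at 600.3 and 553 CPM. The dermal γδ list summed to more in the other classes, 309.7 and 270.2 CPM in αβ T cells and 130.6 and 103.1 CPM in ILCs. In αβ T cells all 8 αβ markers were found, summing to 3349 and 2912 CPM and led by Trbc2. The same list summed to 2588 and 2229 CPM in DETCs, where the rule sets 4 of its genes to 0, and to 1912 and 1786 CPM in ILCs, led by Trbc1 in both, so this sum sets the αβ class little apart. The αβ T cells held the DETC list at 5337 and 6201 CPM, more than their own, and the name stands here for the rule on Trac. These cells also held Trdc at 299.7 and 546 CPM, and 39 and 57 of them had at least 1 Trdc UMI. The levels and folds of Areg, Vegfa and Tgfb1 in αβ T cells are therefore also given without those cells. In the ILC class the ILC markers summed to 2183 and 2109 CPM with Il7r on top, with 6 of 7 found in the control library, where Il1rl1 was at 0, and 7 of 7 in the other. That class also held the keratinocyte list (Krt5, Krt14, Krt10, Krt1 and Krt15) at 483 and 3852 CPM, led by Krt14 at 282 and 1864 CPM with Krt1 at 0 in the control library, against 16.8 and 28.4 CPM for the list in DETCs. The Langerhans or myeloid list (Cd207, Cd74, H2-Aa, H2-Ab1, Lyz2, Csf1r and Itgam) summed to 1311 and 2011 CPM in ILCs, led by Cd74 at 763 and 1060 CPM with Itgam at 0 in the anti-Skint1 library, against 17.5 and 15.1 CPM in DETCs. The ILC class is thus not pure, and its values are also given for the 48 and 69 ILCs with no UMI of either list, written below as ILCs free of both lists. The libraries shared 5 barcodes among kept cells, 3 of them in DETCs.

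Areg, the EGF receptor ligand (ENSMUSG00000029378; GENCODE vM21 on GRCm38, chromosome 5 from 91139599 to 91148432, plus strand), was at 592.5 CPM (580.1 to 605) in DETCs of the control library and at 557 CPM (546 to 567) in those of the anti-Skint1 library, on 8686 and 10414 UMIs. In αβ T cells it was at 226 CPM (194 to 261) and 326 CPM (289 to 367). In ILCs it was at 229.8 CPM (184 to 283) and 325 CPM (282 to 371). DETCs were thus the highest of the 3 classes in both libraries, and αβ T cells and ILCs did not differ from each other beyond counting error. The log2 ratio of ILCs over αβ T cells was 0.02 (-0.36 to 0.40) in the control library and -0.01 (-0.27 to 0.26) in the anti-Skint1 library. Areg in DETCs exceeded that in αβ T cells 2.62-fold (2.26 to 3.05) in the control library and 1.71-fold (1.51 to 1.93) in the anti-Skint1 library. Against ILCs the folds were 2.58 (2.09 to 3.22) and 1.72 (1.498 to 1.97). Both class differences therefore passed 2-fold in the control library and fell short of it in the anti-Skint1 library. With the 10 cells richest in Areg left out of each class, a larger part of 197 αβ T cells or 82 ILCs than of 3544 DETCs, the log2 ratio of DETCs over αβ T cells went from 1.39 to 2.68 in the control library and from 0.77 to 1.80 in the anti-Skint1 library, and that over ILCs from 1.37 to 3.42 and from 0.78 to 1.92. Part of this rise is built in, since the parts left out are unequal.

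The smaller classes set the size of that difference. Without the cells that held Trdc, αβ T cells had Areg at 211 CPM (177 to 250.03) and 194 CPM (160.3 to 233), and the fold of DETCs over them was 2.81 (2.37 to 3.35) and 2.87 (2.39 to 3.47), past 2-fold in both libraries. The αβ T cells with Trdc were at 283 CPM (208 to 377) in 39 cells and 658 CPM (559 to 769) in 57 cells. ILCs free of both lists had Areg at 164 CPM (114 to 229.9) and 149 CPM (108 to 201), and the folds became 3.602 (2.58 to 5.20) and 3.74 (2.77 to 5.17). Areg differed widely within the αβ T class too. The αβ T cells with Foxp3, the gene that marks regulatory T cells, held 49 Areg UMIs in 17 cells and 9 in 12 cells, 722 CPM (534 to 954) and 253 CPM (116 to 480.4). Those with Cd4 and no Foxp3, 44 cells in each library, were at 75.4 CPM (39.0 to 132) and 252 CPM (184 to 337). Those with Cd8a or Cd8b1 held 0 Areg UMIs in 25 cells and 1 UMI in 17 cells. In the control library the Foxp3 cells were thus not distinguishable from DETCs, with a log2 ratio over DETCs of 0.28 (-0.15 to 0.69). In the anti-Skint1 library that ratio was -1.14 (-2.27 to -0.21). With 17 and 12 cells, and 16 of the 49 control UMIs in 1 cell, no difference between the libraries is read from this.

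The αβ T cells with Cd8a or Cd8b1 were taken, after their values were seen, as the cells that come nearest to lacking Areg. Without thinning, 37.9% of DETCs of the control library and 34.9% of those of the anti-Skint1 library had an Areg UMI, at a median of 4028 and 3577 UMIs per cell. The Cd8 cells had 0 of 25 and 1 of 17 at a median of 4219 and 3818 UMIs and were thus no shallower than DETCs. Barcodes with 1 to 100 UMIs, which sample RNA free in the suspension, had Areg at 276 and 280 CPM, and keratin transcripts put free RNA at 1.79% and 2.14% of DETC UMIs. Free RNA would then add 4.95 and 5.97 CPM of Areg to DETCs, 0.836% and 1.07% of their level. The kept cells in no class had Areg at 450.0 CPM (420.2 to 481) and 453 CPM (428 to 479). DETCs held 88.9% and 86.2% of the Areg UMIs of all kept cells and made up 83.5% and 83.0% of these cells.

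**Figure D1:**
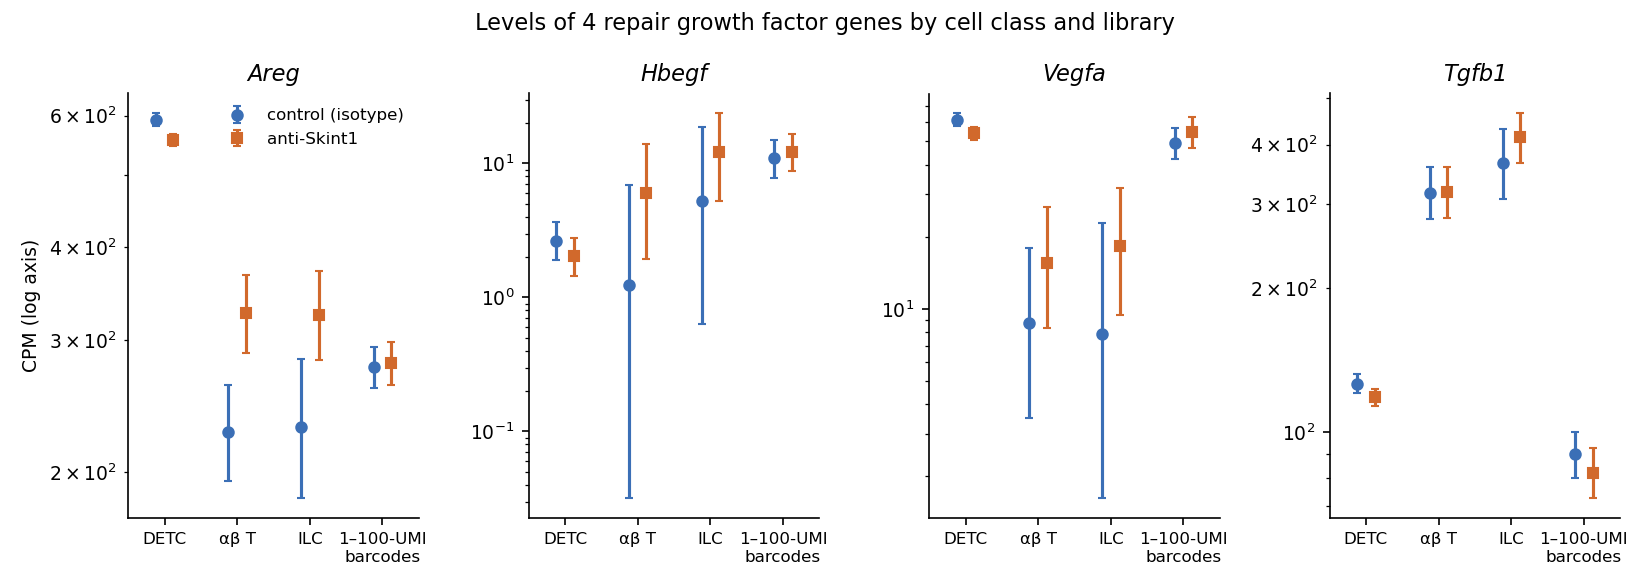
Levels of Areg, Hbegf, Vegfa and Tgfb1 in CPM (log axis) in DETCs, αβ T cells, ILCs and barcodes with 1 to 100 UMIs, for each library, with exact 95% Poisson intervals as bars. Areg and Vegfa are highest in DETCs among the 3 cell classes, and Tgfb1 is lowest there.

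Areg was unevenly spread over DETCs. With each cell of at least 2000 UMIs thinned to 2000, which left 3410 and 4743 DETCs and dropped 134 and 202, an Areg UMI was found in 31.8% (30.3 to 33.4) and 29.9% (28.6 to 31.2) of them. The corresponding shares were 14.2% (9.58 to 20.0) and 19.4% (14.1 to 25.6) of αβ T cells, and 22.1% (13.4 to 33.0) and 24.3% (17.3 to 32.4) of ILCs. At equal depth DETCs thus had the larger share against αβ T cells, while the interval for ILCs reached the DETC share in both libraries. Among thinned DETCs, 10.6% and 10.54% had exactly 1 Areg UMI, and 9.35% and 8.10% had 5 or more. Cells with 20 or more numbered 9 and 11. The 10% of DETCs with most Areg held 65.9% and 70.1% of its UMIs, and 6.28% and 5.31% of DETCs were enough to hold 50% of them. The variance of Areg UMIs over DETCs was 6.28 and 6.76 times the mean, against 2.92 and 2.31 times for Trdc, 1.71 and 1.52 times for Cd3e and 9.02 and 9.69 times for the immediate early gene Fos. It was 42.4 and 58.8 times for Gzmc, 19.5 and 34.4 times for Xcl1 and 2.09 and 1.92 times for Il13. For Vegfa this ratio was 1.53 and 1.54 and for Tgfb1 1.24 and 1.20, where counting alone gives 1. The ratio grows with the mean, which was 1.20 and 1.12 UMIs per cell for Areg and 0.118 and 0.105 for Vegfa. The excess over 1 divided by the mean was 4.41 and 5.15 for Areg, 4.48 and 5.12 for Vegfa and 0.974 and 0.836 for Tgfb1, so relative to its level Vegfa was as uneven as Areg. DETCs with 5 or more UMIs numbered 2 and 1 for Vegfa and 2 and 2 for Tgfb1.

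**Figure D2:**
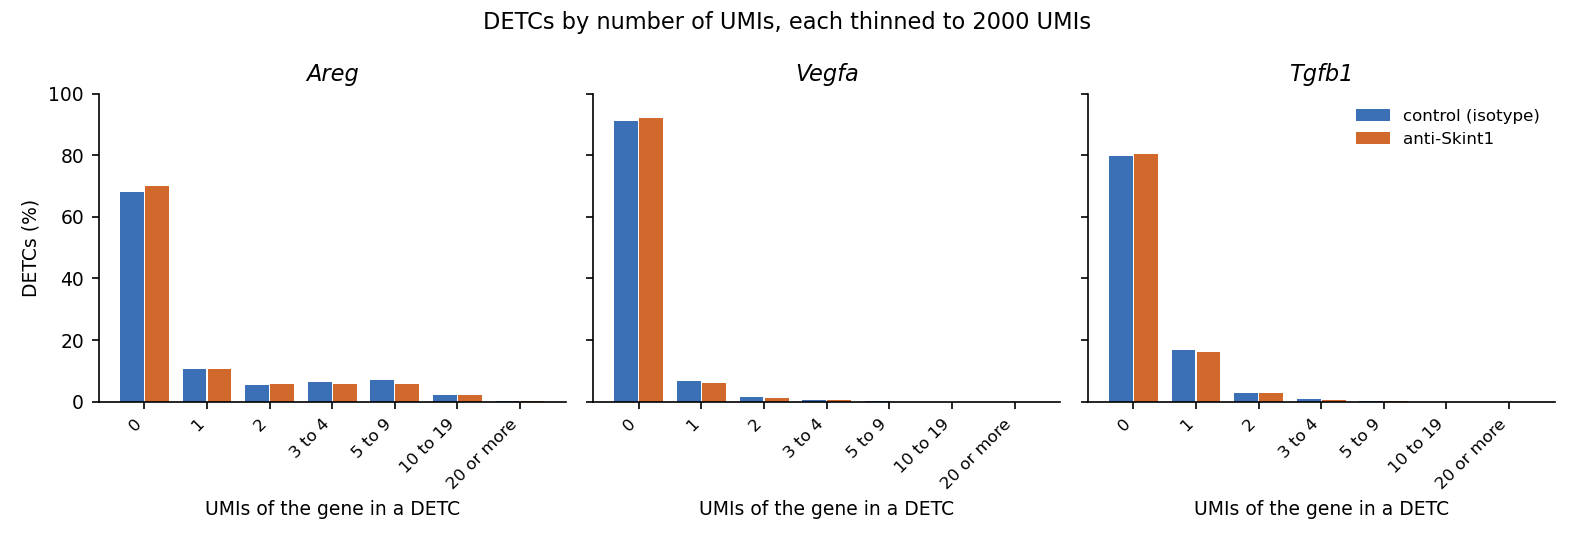
Share of DETCs (%) by the number of UMIs of Areg, Vegfa or Tgfb1 in the cell, each cell thinned to 2000 UMIs, for each library. Areg alone of the 3 genes reaches 10 or more UMIs in a cell, and it has the highest mean.

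The immediate early state of a cell went with Areg. A score, the sum of UMIs of Fos, Fosb, Jun, Junb, Egr1 and Ier2 in a thinned cell, was split at the same limits in every class, from 0 to 6 (low), 7 to 18 (middle) and 19 or more (high); these are ranges of a score and not cell types. Low-score, middle-score and high-score DETCs numbered 1133, 1215 and 1062 in the control library and 1707, 1515 and 1521 in the anti-Skint1 library. Areg was at 65.8 CPM (55.6 to 77.2), 649 CPM (617 to 682) and 1112 CPM (1068 to 1158) in these in the control library. In the anti-Skint1 library it was at 54.5 CPM (46.9 to 62.9), 538 CPM (512 to 564) and 1149 CPM (1111 to 1188). Areg rose with the score in both libraries, and the share of cells with an Areg UMI rose from 6.88% through 38.7% to 50.6% and from 6.09% through 33.9% to 52.6%. The log2 ratio of high-score over low-score DETCs was 4.08 (3.84 to 4.33) and 4.40 (4.19 to 4.62) for Areg, against a median of -0.17 and -0.17 over all genes at 50 CPM or more. For Vegfa, the vessel growth factor, the levels rose from 13.7 CPM (9.30 to 19.4) through 70.0 CPM (59.8 to 81.3) to 95.6 CPM (82.9 to 109.7) in the control library. In the anti-Skint1 library Vegfa rose from 9.37 CPM (6.41 to 13.2) through 55.4 CPM (47.4 to 64.5) to 98.0 CPM (87.1 to 109.7). The high-score and low-score intervals of Vegfa lay far apart in both libraries, with log2 ratios of 2.80 (2.25 to 3.40) and 3.39 (2.86 to 3.96). For Tgfb1 the ratio was 0.42 (0.17 to 0.67) and 0.36 (0.15 to 0.56), from 107 to 143 CPM and from 108 to 138 CPM. Of the 5 members, Areg, Vegfa and Tgfb1 reached a mean of 50 CPM over high-score and low-score cells and could be called. Areg was past 2-fold higher in high-score cells in both libraries, where 5.82% of 2767 genes were, and Tgfb1 was not. Vegfa was past it too, but low-score cells held it below 50 CPM, so it passed that limit only through the high-score cells. None of the 3 was past 2-fold lower, where 0.0723% were. Hbegf had 3, 10 and 7 UMIs in the score ranges of the control library and 3, 6 and 7 in those of the anti-Skint1 library, too few to order.

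The classes differed in this score, and within the low range the order of the whole classes for Areg was the other way round. Low-score cells were 33.2% and 36.0% of DETCs, 65.8% and 57.1% of αβ T cells and 81.8% and 80.1% of ILCs. High-score cells were 31.1% and 32.1% of DETCs, 6.84% and 12.8% of αβ T cells and 1.299% and 6.62% of ILCs. Most αβ T cells and ILCs therefore lay in the range where DETCs have little Areg. In low-score αβ T cells Areg was at 136 CPM (94.2 to 190.05) in 125 cells and 125 CPM (83.1 to 181) in 112 cells. In low-score ILCs it was at 167 CPM (103 to 255) in 63 cells and 179 CPM (127 to 245) in 109 cells. Both lay above the 65.8 and 54.5 CPM of low-score DETCs, with log2 ratios of DETCs over αβ T cells of -1.05 and -1.20 and over ILCs of -1.34 and -1.72. They rest on 34 and 28 Areg UMIs in αβ T cells and 21 and 39 in ILCs. The αβ T cells without Trdc and the ILCs free of both lists were not split by score. The share of this order that a few rich or wrongly classed cells make was therefore not tested. In the middle range DETCs were at 649 and 538 CPM and αβ T cells at 279 CPM (187 to 400.5) and 305 CPM (214 to 422). Middle-score ILCs were only 13 and 18 cells, at 885 CPM (561 to 1327) and 472 CPM (275 to 756). In the high range αβ T cells were at 385 CPM (184 to 707) in 13 cells and 1260.0 CPM (968 to 1612) in 25 cells, and ILCs of the anti-Skint1 library at 889 CPM (508 to 1444) in 9 cells. The higher Areg of DETCs over all cells was thus not seen among low-score cells in either library, nor against high-score αβ T cells of the anti-Skint1 library. Against ILCs, DETCs were higher beyond counting error in none of the ranges, with 1 high-score ILC in the control library. Whether the score or the cell class sets the level was not tested. The split of the other classes by these limits was added after the data were seen.

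**Figure D3:**
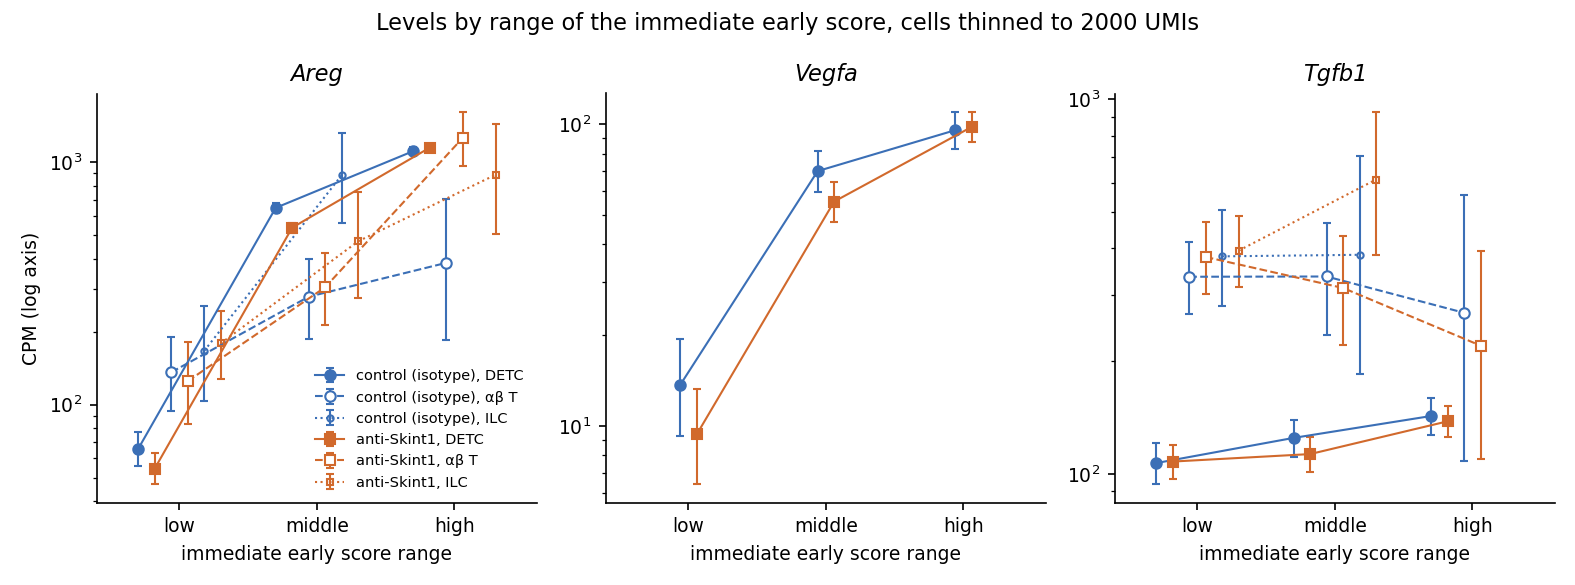
Levels of Areg and Tgfb1 in DETCs, αβ T cells and ILCs, and of Vegfa in DETCs, in CPM (log axis) by range of the immediate early score, for each library, with exact 95% Poisson intervals; groups with 3 UMIs or fewer are left out. Areg climbs from 65.8 to 1112 CPM in DETCs of the control library, and Tgfb1 from 107 to 143 CPM.

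Hbegf, the other EGF receptor ligand among the members (ENSMUSG00000024486, minus strand), was rare. It had 39 UMIs in DETCs of the control library, 2.66 CPM (1.89 to 3.64), and 38 in those of the anti-Skint1 library, 2.03 CPM (1.44 to 2.79). In αβ T cells there were 1 and 5 UMIs and in ILCs 2 and 8. At 2000 UMIs per cell, Hbegf was found in 18 of 3410 and 15 of 4743 DETCs, 0.528% (0.313 to 0.833) and 0.316% (0.177 to 0.521), and in 0 of 190 αβ T cells of the control library, which allows a share of up to 1.58%. In the anti-Skint1 library 3 of 196 αβ T cells had it, 1.53% (0.317 to 4.41), a higher share than in DETCs with an interval that overlaps theirs. The shares therefore cannot be told apart at this depth. Barcodes with 1 to 100 UMIs had Hbegf at 11.01 CPM (7.83 to 15.0) and 12.2 CPM (8.72 to 16.6), above the DETC level in both libraries. Free RNA would supply 0.197 and 0.261 CPM of Hbegf in DETCs, 7.42% and 12.8% of their level, so most Hbegf UMIs of DETCs exceed what this estimate gives. Of the 8 Hbegf UMIs in ILCs of the anti-Skint1 library, 7 were in the 10 ILCs with at least 5 UMIs of the keratinocyte list. Those 10 cells had Hbegf at 87.4 CPM (35.1 to 180.1), against 1.73 CPM (0.0437 to 9.62) in the other 129 ILCs, and 1 Areg UMI, 0 Vegfa UMIs and 0 Tgfb1 UMIs. Among all kept cells with at least 5 keratinocyte UMIs, Hbegf had 0 UMIs in 6 cells of the control library and 10 UMIs in 27 cells of the anti-Skint1 library, 61.6 CPM (29.5 to 113). In the anti-Skint1 library 1 cell outside the classes held 17 of the 22 Hbegf UMIs of cells in no class. Barcodes over 2500 genes that met the DETC rule, 312 and 287 in number and counted elsewhere only where no upper gene limit was set, had 11 and 32 Hbegf UMIs, 3.55 CPM (1.77 to 6.36) and 11.4 CPM (7.82 to 16.1). With these barcodes added, the keratinocyte list in DETCs went from 16.8 to 171 CPM and from 28.4 to 202 CPM. The source of their Hbegf was not tested.

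The wider EGF family was nearly silent in DETCs apart from Areg. Of the 11 ligands listed, only Areg reached a mean of 10 CPM over both libraries. Egf was at 2.25 and 2.30 CPM and Nrg2 at 1.71 and 2.62 CPM, while Tgfa had 1 and 3 UMIs, Ereg and Btc 1 and 0 each, and Epgn, Nrg1 and Nrg3 had 0 in both libraries. The EGF receptor gene Egfr had 1 UMI in DETCs of each library, next to the 8686 and 10414 UMIs of its ligand Areg. The genes of the release machinery were present, Adam17, the main protease that frees Areg, at 23.1 and 19.4 CPM, its partner Rhbdf2 at 27.8 and 27.5 CPM and the related protease Adam10 at 56.1 and 51.1 CPM. Adam17 was higher in the other classes, at 68.7 and 58.6 CPM in αβ T cells and 57.5 and 89.5 CPM in ILCs. Errfi1, which encodes an inhibitor of EGF receptor kinases, was at 413 and 412 CPM in DETCs. It was at 116 and 114 CPM in αβ T cells and 49.6 and 50.04 CPM in ILCs. DETCs were past 2-fold higher in both libraries in both comparisons, where 8.59% and 12.3% of all genes compared were.

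Vegfa (ENSMUSG00000023951, chromosome 17 from 46016993 to 46032369, minus strand) was at 61.6 CPM (57.6 to 65.7) and 54.1 CPM (50.8 to 57.5) in DETCs, on 903 and 1012 UMIs. In αβ T cells it had 7 and 13 UMIs, 8.74 CPM (3.51 to 18.0) and 15.5 CPM (8.28 to 26.6). In ILCs it had 3 and 12 UMIs, 7.83 CPM (1.62 to 22.9) and 18.2 CPM (9.40 to 31.8). DETCs were above both other classes in both libraries, and αβ T cells and ILCs did not differ beyond counting error. Vegfa in DETCs exceeded that in αβ T cells 7.05-fold (3.41 to 17.6) and 3.48-fold (2.03 to 6.56). Without the cells that held Trdc, αβ T cells had 3 and 9 Vegfa UMIs, 4.73 CPM (0.975 to 13.8) and 15.1 CPM (6.88 to 28.6), and the folds were 13.0 (4.45 to 63.3) and 3.59 (1.89 to 7.88). Vegfa in DETCs exceeded that in ILCs 7.86-fold (2.68 to 38.2) and 2.97-fold (1.695 to 5.77). ILCs free of both lists held 2 and 1 Vegfa UMIs, and the ratio of DETCs over them was 6.37-fold (1.76 to 52.6) and 15.6-fold (2.80 to 617). At 2000 UMIs per cell, 8.97% (8.04 to 9.98) and 7.99% (7.23 to 8.80) of DETCs had a Vegfa UMI, against 1.05% (0.128 to 3.75) and 2.55% (0.833 to 5.85) of αβ T cells. DETCs held 91.2% and 86.5% of the Vegfa UMIs of kept cells. Low-score DETCs, at 13.7 and 9.37 CPM, lay near what so few low-score αβ T cells can resolve. These had 0 Vegfa UMIs in 125 cells, which allows up to 12 CPM by 3 counts and 14.8 CPM by the exact interval, and 2 UMIs in 112 cells, 8.93 CPM (1.08 to 32.3). Middle-score αβ T cells had 1 UMI in each library, 9.62 CPM (0.243 to 53.6) and 8.47 CPM (0.215 to 47.2), below DETCs. High-score αβ T cells had 1 UMI in 13 cells, 38.5 CPM (0.974 to 214), and 4 in 25 cells, 80 CPM (21.8 to 205). These could not be told from high-score DETCs at 95.6 and 98.0 CPM. Against αβ T cells, DETCs were thus higher in Vegfa beyond counting error in the middle range only. Of the other VEGF family ligands, Vegfb was at 50.1 and 48.6 CPM in DETCs against 16.2 and 16.7 CPM in αβ T cells, Vegfc was at 0 in both libraries, and Pgf had 3 and 8 UMIs and Vegfd 2 and 1. The receptor genes Kdr, Flt1 and Flt4 had 1 and 0, 2 and 4, and 0 and 0 UMIs in DETCs.

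Tgfb1 (ENSMUSG00000002603, chromosome 7 from 25687002 to 25705077, plus strand) had the opposite order of classes. It was at 126 CPM (121 to 132) and 118 CPM (113 to 123) in DETCs. In αβ T cells it was at 317 CPM (279 to 359) and 318 CPM (281 to 359). In ILCs it was at 366 CPM (308 to 431) and 414 CPM (366 to 466). DETCs were the lowest class in both libraries, and ILCs and αβ T cells did not differ beyond counting error in the control library, where the log2 ratio of ILCs over αβ T cells was 0.20 (-0.10 to 0.51), whereas in the anti-Skint1 library it was 0.38 (0.13 to 0.63). Tgfb1 in αβ T cells exceeded that in DETCs 2.51-fold (2.20 to 2.87) and 2.69-fold (2.36 to 3.05). In ILCs it exceeded that in DETCs 2.90-fold (2.42 to 3.44) and 3.499-fold (3.07 to 3.97). Without the cells that held Trdc, αβ T cells were at 326 CPM (283 to 374) and 378 CPM (330.4 to 431), 2.58-fold (2.23 to 2.98) and 3.20-fold (2.77 to 3.67) above DETCs. With Trac of at least 3 and no Trdc the log2 ratio of DETCs over αβ T cells was -0.93 and -1.65, short of 2-fold in the control library. With no upper gene limit the ratio over ILCs turned to 0.12 and 0.057. The whole ILC class then numbered 134 and 220 barcodes and held the keratinocyte list at 16765 and 18673 CPM. Of the 5 members, Areg and Tgfb1 reached a mean of 50 CPM over the classes compared and could be called, and 1 of these, Tgfb1, was past 2-fold lower in DETCs than in αβ T cells in both libraries, where 4.08% of 2595 genes were. Neither of these 2 was past 2-fold higher in both libraries, where 8.59% of those genes were. Vegfa lay below that mean and was not counted. Against ILCs, Tgfb1 was again the 1 member past 2-fold lower in both libraries, where 4.96% of 2538 genes were, and neither of the 2 was past 2-fold higher, where 12.3% were. The median log2 ratio of all genes compared was 0.12 and 0.13 for DETCs over αβ T cells and 0.08 and 0.14 for DETCs over ILCs.

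The lower Tgfb1 of DETCs held in most subsets of the other classes. Among αβ T cells it was at 427 CPM (286 to 614) and 309 CPM (154 to 553) with Foxp3. With Cd8a or Cd8b1 it was at 226 CPM (146 to 334) and 199.8 CPM (109 to 335). With Cd4 and no Foxp3 it was at 302 CPM (222 to 399.8) and 364 CPM (281 to 464). All of these values exceeded those of DETCs, although the interval of the Cd8 cells of the anti-Skint1 library reached into that of DETCs. ILCs free of both lists were at 276 CPM (209 to 357) and 405 CPM (335 to 486). Within low-score cells Tgfb1 was at 107 CPM (93.8 to 121) and 108 CPM (97.1 to 119) in DETCs and at 336 CPM (268 to 416) and 379 CPM (303 to 469) in αβ T cells. In the middle range it was at 125 and 113 CPM in DETCs and at 337 CPM (234 to 468) and 314 CPM (221 to 432) in αβ T cells. In the high range the αβ T cells, at 269 CPM (108 to 555) on 7 UMIs and 220.0 CPM (110 to 394) on 11, could not be told from DETCs at 143 and 138 CPM, nor could ILCs of the anti-Skint1 library, at 167 CPM (34.4 to 487) on 3. At 2000 UMIs per cell, 20.3% (18.9 to 21.7) and 19.5% (18.4 to 20.7) of DETCs had a Tgfb1 UMI, against 43.2% (36.0 to 50.5) and 44.4% (37.3 to 51.6) of αβ T cells and 50.6% (39.0 to 62.2) and 47.8% (39.2 to 56.5) of ILCs. DETCs held 69.7% and 66.7% of the Tgfb1 UMIs of kept cells, below their share of the cells.

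Of the 28 genes listed for TGF-β ligands, activation and signalling, 9 reached 50 CPM over the classes, and 2 of them, Tgfb1 and Skil, which encodes a repressor of SMAD proteins, were past 2-fold lower in DETCs than in αβ T cells in both libraries, where 4.08% of all genes compared were. Against ILCs 4 of 9 were, where 4.96% of all genes were: Tgfb1, Skil, Tgfbr1 and Furin, a protease that cleaves the precursor of TGF-β1, and none was past 2-fold higher in either comparison. The calls against ILCs rest on the whole class, with its keratinocyte and myeloid transcripts. In ILCs free of both lists Tgfb1 exceeded that in DETCs 2.19-fold (1.65 to 2.84) and 3.43-fold (2.82 to 4.13), and the other genes are not given there. The median log2 ratio of the 9 genes was -0.59 and -0.76 for DETCs over αβ T cells and -0.96 and -1.24 for DETCs over ILCs. The other ligands in DETCs were low, with Tgfb3 at 10.3 and 11.7 CPM and Tgfb2 at 2 and 5 UMIs. Furin was nonetheless at 330.2 and 319.6 CPM in DETCs, Itgae, the αE integrin chain that TGF-β induces, at 572 and 579 CPM, the receptor gene Tgfbr2 at 106 and 100.1 CPM and the inhibitory Smad7 at 436 and 394 CPM. The integrin gene Itgb6, whose product activates latent TGF-β on epithelium, had 0 UMIs in DETCs of both libraries, and Itgb8 had 0 and 2.

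Igf1 (ENSMUSG00000020053, chromosome 10 from 87858265 to 87937042, plus strand), the ligand of the IGF1 receptor, had 1 UMI in DETCs of the control library and 0 in those of the anti-Skint1 library, and 0 in αβ T cells, ILCs and cells in no class of both. A count of 0 allows up to 0.160 CPM in DETCs of the anti-Skint1 library, and the 1 UMI of the control library is 0.0682 CPM. In thinned cells Igf1 was found in 0 of 3410 and 0 of 4743 DETCs, which allows shares of cells with a captured UMI of up to 0.0880% and 0.0633% and sets no limit on cells that express the gene. Igf1 was thus not detectable as a DETC transcript at this depth, and no fold between classes or treatments can be given. Barcodes with 1 to 100 UMIs did hold Igf1, with 22 and 21 UMIs, 6.21 CPM (3.89 to 9.40) and 6.41 CPM (3.97 to 9.80), from which free RNA would supply 0.111 and 0.137 CPM to DETCs. The receptor gene Igf1r was at 70.3 and 70.4 CPM in DETCs, 32.5 and 33.5 CPM in αβ T cells and 67.9 and 69.8 CPM in ILCs. It was past 2-fold higher in DETCs than in αβ T cells in both libraries, where 8.59% of 2595 genes were. Igf1r reached the mean of 50 CPM only through DETCs, so nothing is read from this call. Igfbp5, an IGF-binding protein gene, was at 49.1 and 53.1 CPM in DETCs, and Igf2 was at 0.

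Between treatments the members moved little in DETCs. The log2 ratio of the anti-Skint1 library over the control library was -0.09 (-0.13 to -0.05) for Areg. For Vegfa it was -0.19 (-0.32 to -0.06) and for Tgfb1 -0.09 (-0.18 to -0.003). The median over the 7549 genes with a mean of at least 10 CPM was -0.03, so these 3 ratios lay slightly below it, with that of Tgfb1 within counting error of it. Hbegf, at -0.39 (-1.07 to 0.29), could not be told from 0. Of the members, 3 of 5 (Areg, Vegfa and Tgfb1) reached 10 CPM, and 0 of them were past 1.5-fold in either direction; over all genes tested, 0.0397% were past 1.5-fold higher and 0.291% past 1.5-fold lower. The intervals of Areg, Vegfa and Tgfb1 lay wholly within 1.5-fold of 0 change in both directions. Within the score ranges the ratio of Areg was -0.27 (-0.59 to 0.05) in low-score, -0.27 (-0.37 to -0.17) in middle-score and 0.05 (-0.03 to 0.12) in high-score DETCs. For Vegfa it was -0.55 (-1.30 to 0.22), -0.34 (-0.65 to -0.02) and 0.04 (-0.23 to 0.30). The high-score DETCs of the libraries thus did not differ beyond counting error in Areg or Vegfa. In middle-score cells the ratios of both lay below 0 by counting error alone. The UMIs of both genes cluster in cells, which these intervals leave out, so no difference is read from the middle range.

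In the smaller classes Areg moved the other way. Its log2 ratio of the anti-Skint1 library over the control library was 0.53 (0.25 to 0.81) in αβ T cells and 0.50 (0.13 to 0.87) in ILCs. The ratio was -0.12 (-0.49 to 0.25) in αβ T cells without Trdc and 1.22 (0.74 to 1.72) in those with it. The higher Areg of αβ T cells in the anti-Skint1 library was therefore not seen once those with Trdc were set aside. With Trac of at least 3 and no Trdc, Areg was at 154.8 CPM in 62 cells and 203.5 CPM in 43 cells. The second value is the larger, but no interval was computed for these few cells and no difference is read from them. In ILCs with under 5 keratinocyte UMIs the ratio was 0.66 (0.29 to 1.03), and in ILCs free of both lists -0.14 (-0.83 to 0.55), an interval wide enough to hold both 0 and the value of the whole class. In αβ T cells the removal of cells with keratinocyte or myeloid UMIs instead widened it to 1.38 (0.99 to 1.78), from 128 CPM (100.5 to 160.2) to 332 CPM (289 to 380), since it lowered the control level, and in the αβ T cells with Cd4, Cd8a or Cd8b1 the ratio was 0.95 (0.29 to 1.63). The αβ T cells with Foxp3 had a ratio of -1.51 (-2.72 to -0.47), and with 17 and 12 cells nothing is read from its sign. No member with a mean of at least 50 CPM was past 1.5-fold in either class, where 4.99% of 2584 genes in αβ T cells and 14.6% of 2564 genes in ILCs were. Tgfb1 had ratios of 0.004 (-0.25 to 0.26) in αβ T cells and 0.18 (-0.12 to 0.48) in ILCs, neither distinguishable from 0. Subsets differed from this. Tgfb1 was at 0.35 (0.05 to 0.65) in ILCs with under 5 keratinocyte UMIs, 0.56 (0.09 to 1.04) in ILCs free of both lists, 0.21 (-0.07 to 0.49) in αβ T cells without Trdc and -0.76 (-1.40 to -0.12) in those with it.

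The pathway lists held no tested gene past 1.5-fold between treatments in DETCs, where 0.0397% of 7549 genes were higher and 0.291% lower. With so few genes past it, a count of 0 says little about these lists. Of the 14 genes listed for EGF ligand release and receptors 7 were tested, of 10 in the VEGF family 2, of 28 for TGF-β 17, of 13 in the IGF family 4 and of 20 other repair factors 9, and none of them was past 1.5-fold. Their median log2 ratios were -0.02, -0.12, -0.05, 0.06 and 0.03. Smaller movements lay beyond counting error. Among them were Cxcl10 at 0.41 (0.32 to 0.51), Csf2 at -0.42 (-0.64 to -0.20), Ptgs2 at -0.34 (-0.60 to -0.08), Tgif1 at -0.34 (-0.61 to -0.07), Adam17 at -0.26 (-0.47 to -0.04) and Ski at -0.24 (-0.38 to -0.10). Among genes below 10 CPM, which were not tested, Il17a, one of the dermal γδ T cell markers, was at -0.80 (-1.16 to -0.45). Igfbp6, with 22 and 51 UMIs, was at 0.86 (0.11 to 1.65) and Lrrc32, with 12 and 5 UMIs, at -1.61 (-3.47 to -0.006). The companion lists gave 28 of 28 immediate early genes with a median of -0.06, 20 of 25 hypoxia and glycolysis genes with a median of -0.01, and 13 of 13 heat shock genes with a median of -0.31. In these, 1 gene was past 1.5-fold, the chaperone gene Hsph1, lower at 64.7 CPM against 115 CPM with a log2 ratio of -0.83 (-0.93 to -0.72). The immediate early genes went both ways beyond counting error, with Egr2 at 0.43, Klf2 at 0.40, Egr1 at 0.39 and Ier2 at 0.29 against Atf3 at -0.55, Nr4a3 at -0.34, Jun at -0.24 and Fosb at -0.20. Egr1, Ier2, Jun and Fosb are genes of the score, so a range of the score may not hold like cells in the 2 libraries, which also limits the treatment ratios within ranges. Among the other repair factors Mif, Il13, Cxcl2 and Cxcl10 were the most abundant in DETCs, whereas the keratinocyte growth factor gene Fgf7 had 5 and 12 UMIs and Fgf10 1 and 0. Between classes, Il22 and Csf2, 2 of the 7 genes of that list tested, were past 2-fold lower in DETCs than in αβ T cells in both libraries, where 4.08% of all genes compared were, at 36.6 and 34.3 CPM against 142 and 135 CPM for Il22.

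The members were then compared within single DETCs. Of the thinned cells, 48.7% and 45.7% had a UMI of at least 1 member, 10.6% and 10.1% of exactly 2, and 40 and 46 cells of 3. Areg and Vegfa were found together in 159 cells of the control library, where the product of their shares gives 97.4, a ratio of 1.63 (1.39 to 1.91). In the anti-Skint1 library they were together in 220 cells where 113 are given, a ratio of 1.94 (1.69 to 2.22). An Areg UMI was thus present in 52.0% and 58.0% of the DETCs with Vegfa, against 31.8% and 29.9% of all DETCs. With the expected number summed over the score ranges the ratio was 1.24 and 1.36, nearer to 1 in both libraries. Areg and Tgfb1 were together in 242 cells against 220.2 and in 298 against 277, ratios of 1.10 (0.965 to 1.247) and 1.08 (0.958 to 1.21). Vegfa and Tgfb1 were together in 63 cells against 62.1 and in 91 against 74.0, ratios of 1.01 (0.780 to 1.298) and 1.23 (0.990 to 1.51). Areg and Hbegf were together in 11 cells against 5.73, a ratio of 1.92 (0.959 to 3.44), and in 4 against 4.48, a ratio of 0.892 (0.243 to 2.28). These counts come from 1 draw of the thinning, and some depend on it. As means over 20 draws the ratios were 1.68 and 1.83 for Areg with Vegfa and 1.07 and 1.12 for Areg with Tgfb1. For Vegfa with Tgfb1 the means were 80.9 cells against 65.8 and 99.5 against 77.2, ratios of 1.23 and 1.29, and at 1000 UMIs the ratios were 1.38 and 1.35, so the 1.01 of the control library is low for this pair. For Areg with Hbegf the means were 1.47 and 1.55, above 1 in both libraries, on 7.15 and 8.35 cells. Nothing is therefore read from the pairs other than Areg with Vegfa. The pairs of Hbegf with Vegfa had 3 and 2 cells and with Tgfb1 2 and 3 cells, and the 4 pairs with Igf1, of the 10 pairs in all, had 0.

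**Figure D4:**
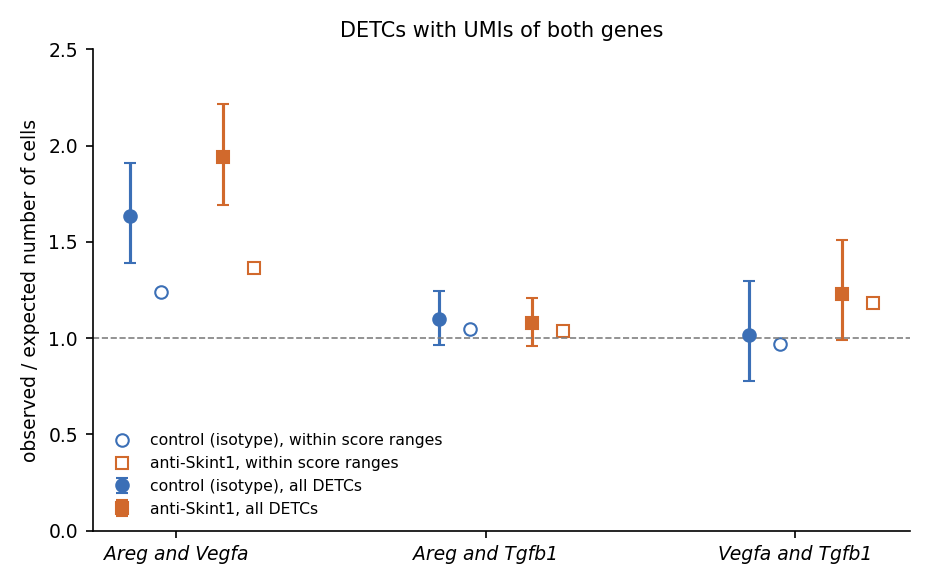
Number of DETCs with UMIs of both genes of a pair over the number given by the product of their shares, for each library, with filled points and exact 95% Poisson intervals over all thinned DETCs and open points for the expectation summed over ranges of the immediate early score. Areg with Vegfa lies above 1 in both libraries, and in this draw the intervals of both pairs with Tgfb1 include 1.

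DETCs with a member were also set against DETCs without it for the rest of the transcriptome. There were 1085 and 1418 thinned DETCs with Areg and 2325 and 3325 without. Of the other members, Vegfa was past 1.5-fold higher in cells with Areg in both libraries, where 5.19% of 2735 genes were past it higher and 0.0731% lower, with log2 ratios of 1.36 (1.07 to 1.65) and 1.80 (1.53 to 2.06). Of the 28 immediate early genes 23 were tested and 19 were past 1.5-fold higher, with a list median of 0.89 and 1.00 against -0.07 and -0.09 over all genes. Cells with Areg also had more Errfi1, with log2 ratios of 0.87 and 1.02, more Smad7, with 0.77 and 0.86, and more of the cytokine gene Il13, with 1.02 and 0.97. The chemokine gene Cxcl2, at 1.499 and 1.56, Cxcl10, at 0.84 and 0.92, the chaperone gene Dnajb1, at 0.86 and 0.98, and Hk2, the gene of a hexokinase, at 0.84 and 0.97, complete the listed genes past 1.5-fold, and none was past it lower. DETCs with Vegfa, 306 and 379 against 3104 and 4364 without, had more Areg, with log2 ratios of 1.00 (0.88 to 1.12) and 1.41 (1.31 to 1.51), past 1.5-fold in both libraries where 4.19% of 2672 genes were higher and 0.299% lower. In these cells 13 of 23 immediate early genes were past 1.5-fold higher, along with Smad7, Il13 and Hk2. DETCs with Tgfb1, 692 and 926 against 2718 and 3817, stood out in no member and no listed gene, and over all 2739 genes 0% were past 1.5-fold higher and 0% lower in both libraries. Vegfa was at log2 ratios of 0.15 and 0.54 in them. All of these splits rest on 1 draw of the thinning.

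Among 4472 genes with a UMI in at least 5% of thinned DETCs of both libraries, likeness was measured by Pearson's r of log(1 + UMIs) over 3410 and 4743 cells, which share depth by thinning and come from 2 libraries. Genes were ranked by the weaker of their 2 values. The genes most like Areg were Fos at 0.385 and 0.387, Hist1h2bc at 0.342 and 0.386, Dusp1 at 0.331 and 0.359, H3f3b at 0.321 and 0.372 and Rgs2 at 0.316 and 0.347. Vim, for the filament protein vimentin, was the gene most opposed to Areg by this ranking, at -0.182 and -0.184, although Crip1, at -0.0996 and -0.191, was lower in the anti-Skint1 library. For Vegfa the highest were Hist1h2bc at 0.200 and 0.203, Vps37b at 0.185 and 0.199, Ifrd1 at 0.183 and 0.183, Fos at 0.182 and 0.186 and H3f3b at 0.193 and 0.179, and Vim was again the most opposed, at -0.110 and -0.114. Areg and Vegfa thus shared Fos, Hist1h2bc and H3f3b among their 5 nearest genes. For Tgfb1 and Hbegf no gene was past 0.05 with the same sign in both libraries, and nothing is read from such values.

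Since Areg moved with the immediate early genes, its promoter was searched for short motifs in the RefSeq table of windows from 250 bases before to 50 after each gene start, on both strands. Windows were read for 4 members, all but Hbegf. The cyclic AMP response element TGACGTCA was found in the window of Areg and not in those of Vegfa, Tgfb1 or Igf1, and 588 of 32851 windows, 1.79%, hold it. The AP-1 letters TGANTCA were found for Igf1 alone of these 4 (7.81% of all windows), the hypoxia response core ACGTG for Vegfa alone (19.6%), and 1 exact form of the serum response element for none (0.0639%). The match in Areg begins 61 bases before the gene start. The 250 bases before the Areg gene start (chr5:91139349-91139598, GRCm38.p6, plus strand) are printed to show that match, in capitals, near the end of the window.
Areg promoter: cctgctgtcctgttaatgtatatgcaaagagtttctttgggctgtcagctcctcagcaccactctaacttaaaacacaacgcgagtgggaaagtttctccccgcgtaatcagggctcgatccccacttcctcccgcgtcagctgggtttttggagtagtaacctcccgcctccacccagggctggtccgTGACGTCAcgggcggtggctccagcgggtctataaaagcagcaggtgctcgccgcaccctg
A match is a description of these letters, and no binding was measured.

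Of the positions not yet given, Hbegf lies on chromosome 18 from 36504927 to 36515805. No gene overlaps Areg, Hbegf, Vegfa or Tgfb1 in the annotation, whereas Igf1 shares its place with Igf1os on the other strand.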

How the data were processed

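The authors deposited unfiltered UMI counts, 1 matrix per library with gene and barcode tables, from CellRanger 3.0.2 with the 10x mm10 index in version 3.0.0. Cells are barcodes that hold 500 to 2500 genes with no more than 12% of UMIs from mitochondrial genes. Each library holds 6794880 barcodes, with 27272211 and 32450957 UMIs. The 5 members and all gene lists were chosen with earlier results of these data known. UMIs were summed by class and library and divided by the class total, and ratios carry no pseudocount. Called means past 1.5-fold between treatments or with against without a member, and past 2-fold in both libraries between classes or score ranges, among genes with a mean of at least 10 CPM (DETCs between treatments) or 50 CPM (all else). A count of 0 allows up to 3 counts. The amount of free RNA was set by 5 keratin genes, and its profile by barcodes of 1 to 100 UMIs. For ILCs it is not given. Their keratin UMIs would put it at 51.6% of UMIs in the control library and 289.8% in the anti-Skint1 library. Score limits split the pooled DETCs into ranges of like size. Named genes are the members, list genes at 50 CPM or more and past the fold, the most abundant genes of each list, the 5 genes most like a member, and cell type markers; other names, such as list genes at or near 0, were chosen after their values were seen. Doublets were scored with Scrublet in scanpy, whose own threshold marked 1 of 4709 and 0 of 6425 barcodes and was not usable, so the highest scores at 0.8% per 1000 barcodes (177 and 330, of which 127 and 245 lay within the gene limit) were left out as an alternative only. Tools were Python 3.11.15, numpy 2.4.6, pandas 2.3.3, scipy 1.17.1, scanpy 1.11.5, anndata 0.12.19 and matplotlib 3.10.9, with GENCODE M21 for positions; all 5 members matched it by gene ID. The ratios and the intervals were tested on simulated data. Alternatives were tried for the gene and mitochondrial limits, doublets, class rules, scaling, cell weights, free RNA, the cells with most UMIs of a member, thinning depth and draws, the score and the fold.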

Additional observations from a re-analysis of the deposited data

Results flagged for a closer look

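Areg differed in the sign of its treatment ratio between cell classes. The log2 ratio of the anti-Skint1 library over the control library was -0.090 in DETCs, 0.53 in αβ T cells and 0.50 in ILCs. Among αβ T cells it was -0.12 without Trdc, 1.22 with Trdc, -1.51 with Foxp3, 0.95 with Cd4, Cd8a or Cd8b1 and 1.38 with no keratinocyte or myeloid UMI. Among ILCs it was 0.66 with under 5 keratinocyte UMIs and -0.14 with no keratinocyte or myeloid UMI, so the sign in the smaller classes depends on which cells are counted. The difference between classes was not tested, since each treatment has 1 library.

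Hbegf and Igf1 gave a signal in barcodes with 1 to 100 UMIs, which belong to no cell class and enter the class comparisons only through free RNA. Hbegf was at 11.01 CPM in the control library and 12.2 CPM in the anti-Skint1 library. Igf1 was at 6.21 and 6.41 CPM. They were flagged since in both libraries their interval in those barcodes lay wholly above their interval in DETCs. Their source was not tested.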

How the results depend on the processing

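For the treatment ratio of Areg, Hbegf, Vegfa and Tgfb1 in DETCs, 56 of 60 values under alternatives kept their sign and 50 lay within the counting interval of the value reported. No alternative took Areg, Vegfa or Tgfb1 past 1.5-fold, with log2 ratios from -0.27 to 0.05 for Areg, -0.55 to 0.04 for Vegfa and -0.24 to 0.01 for Tgfb1, while Hbegf passed it in 4 of 15 with a range of -1.06 to 0.21. At most 5% mitochondrial UMIs gave -0.15 for Areg, -0.039 for Vegfa and -0.24 for Tgfb1. Low-score DETCs gave -0.27 for Areg, -0.55 for Vegfa and 0.013 for Tgfb1, middle-score DETCs -0.27 for Areg and -0.34 for Vegfa, and high-score DETCs 0.047 and 0.036 for these. The cause was not tested.

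The counts that follow cover only members at a mean of 50 CPM or more, which as reported were Areg and Tgfb1 and left out Vegfa. The count of members past 2-fold higher in DETCs than in αβ T cells in both libraries, 0 as reported, became 1 with αβ T cells limited to Trac of at least 3 and no Trdc, to no Trdc, or to cells with Cd4, Cd8a or Cd8b1 (added after the data were seen), with at most 5% mitochondrial UMIs, without the highest doublet scores and without the 10 cells with most UMIs. Against ILCs it became 1 with ILCs free of keratinocyte and myeloid UMIs, with at most 5% mitochondrial UMIs, with no upper gene limit and without the 10 top cells. Leaving out 10 cells takes a larger part of the smaller classes and by itself tends to raise these ratios. The count past 2-fold lower, 1 as reported, became 0 against αβ T cells with Trac of at least 3 and no Trdc, and 0 against ILCs with no upper gene limit. The last setting reversed Tgfb1 in DETCs over ILCs to log2 ratios of 0.12 and 0.057. It enlarged the ILC class to 134 and 220 barcodes, which together held keratinocyte markers at 16765 and 18673 CPM. Of 115 alternative class ratios, 107 kept their sign. The log2 ratio of Areg in DETCs over the other classes ran from -1.72 to 3.42, with its lowest values in low-score cells. That of Vegfa over αβ T cells of the anti-Skint1 library, 1.80 as reported, fell to 0.29 in high-score cells.

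Shares follow depth by construction. Thinned to 1000 UMIs and not thinned, DETCs had Areg in 24.2% and 37.9% (control) and 22.0% and 34.9% (anti-Skint1), Hbegf in 0.226% and 0.847% and in 0.142% and 0.688%, Vegfa in 5.29% and 15.4% and in 5.09% and 13.0%, and Tgfb1 in 11.6% and 35.2% and in 10.6% and 31.3%. Co-detection of Areg with Vegfa was 1.24 and 1.36 within score ranges, and that of Vegfa with Tgfb1 was 1.23 and 1.29 as a mean over 20 draws and 1.38 and 1.35 at 1000 UMIs, against 1.01 and 1.23 in the draw used. That of Areg with Hbegf in the anti-Skint1 library was 1.55 over 20 draws against 0.892. By Fos alone the log2 ratio of high over low cells was 2.97 and 3.17 for Areg and, in the anti-Skint1 library, 2.74 for Vegfa. With a limit of 25% above the lower of the 2 levels, 5 list genes were higher and 10 lower between treatments, against 0 and 1 at 1.5-fold, and at 2-fold 0 were lower, since the fold sets these counts. Alternatives added after the data were seen were the αβ T and ILC limits on keratinocyte or myeloid UMIs, the same limit for DETCs, the Cd4 or Cd8 limit and the score ranges in the smaller classes.

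Depth limits Hbegf, with 39 and 38 UMIs in DETCs, and Igf1, with 1 and 0. Only 82 and 139 ILCs and 197 and 213 αβ T cells were available, and with 1 library per treatment the spread between animals is unknown.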
